A study of Mus musculus with 4 samples.

Results

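Macrophages of the mouse pancreas that carry transcripts of the resident scavenger programme were examined in 4 single-cell libraries. A member was a barcode with at least 500 unique molecular identifiers (UMIs, each standing for 1 captured transcript), at least 200 genes and no more than 20% of UMIs from mitochondrial genes that was also chosen by its UMIs of marker genes. It held 10 or more UMIs of the complement genes C1qa, C1qb and C1qc together, at most 2 of the collagen gene Col3a1 and 2 or more of Lyve1, Cd163, Folr2 and Cbr2 together. It held 0 or 1 UMI of Gpnmb and under 3 of the division genes Mki67, Top2a and Cenpf together. These values were measured in the same cells, so what they fix is a description and not a finding. By this rule 502 of 12807 kept barcodes were members. All mice were wild-type C57BL/6, and every library was made from DAPI-negative cells sorted from pancreas, with transcripts read at their 3' ends by the 10x Genomics assay. The groups were saline with 2 days of recovery (S2D, 28 members), caerulein with 2 days of recovery (C2D, 378 members), saline with 6 weeks of recovery (S6W, 75 members) and caerulein with 6 weeks of recovery (C6W, 21 members). Caerulein, a peptide that acts on the cholecystokinin receptor of acinar cells, provokes acute pancreatitis when given in excess. Each group was 1 library, and the labels do not give the number, sex or age of the mice behind it.

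Resident macrophages line ducts, vessels and lobules of the pancreas and take up haemoglobin complexes, hyaluronan, glycoconjugates and dying cells. CD163 is the haemoglobin-haptoglobin receptor, LYVE1 binds hyaluronan, FOLR2 is the folate receptor beta and CBR2 is a carbonyl reductase found in many tissue macrophages. Long-lived resident cells of many organs carry TIMD4, a receptor for phosphatidylserine on dying cells, whereas macrophages recently derived from blood monocytes carry the chemokine receptor CCR2.

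The libraries held 2623 to 5433 barcodes called as cells by the authors and 29145886 to 71547194 UMIs. Members had a median of 7605.5 UMIs, 14213.5, 8731 and 10475 in S2D, C2D, S6W and C6W, and a median of 2.88% to 3.39% mitochondrial UMIs. Between 0 and 10 kept barcodes were shared by any pair of libraries, and no member barcode was shared. Scrublet called 38 (S2D), 19 (C2D), 15 (S6W) and 32 (C6W) doublets, among them 2 members of C2D. In C2D this was too few for so many barcodes, so the results were repeated without the highest-scoring barcodes, which removed 2 members of S2D and 32 of C2D. Genes of digestive enzymes gave a median of 2.32% of a member's UMIs, 0.177%, 1.34% and 1.69% in S2D, C2D, S6W and C6W.

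The 4 marker genes of the rule are read by the assay at their 3' ends. In GRCm38, by GENCODE vM21, Cd163 lies on chromosome 6 from 124304656 to 124330527 (plus strand), Folr2 on chromosome 7 from 101839988 to 101857194 (minus strand) and Lyve1 on chromosome 7 from 110850607 to 110863239 (minus strand). Cbr2 lies on chromosome 11 from 120729489 to 120732114 (minus strand). Promoters of the 3 genes with an entry in the RefSeq promoter table (GRCm38.p6) are shown 5′ to 3′ along the gene's strand. Each window runs from 250 bases before the start to 50 from it. Capitals mark AGGAAGT, letters of ETS factor sites such as those of PU.1, and TGCTGA, the core of MAF factor sites, on either strand. The intervals are chr6:124304401-124304700 for Cd163, chr7:101857141-101857440 for Folr2 (the start nearest the GENCODE gene start, of 2 in the table) and chr11:120731972-120732271 for Cbr2.
Cd163: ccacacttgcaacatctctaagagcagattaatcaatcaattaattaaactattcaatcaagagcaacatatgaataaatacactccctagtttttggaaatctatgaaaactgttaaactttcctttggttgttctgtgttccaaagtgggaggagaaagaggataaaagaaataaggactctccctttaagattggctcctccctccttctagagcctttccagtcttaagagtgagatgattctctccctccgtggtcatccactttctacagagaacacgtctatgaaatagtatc
Folr2: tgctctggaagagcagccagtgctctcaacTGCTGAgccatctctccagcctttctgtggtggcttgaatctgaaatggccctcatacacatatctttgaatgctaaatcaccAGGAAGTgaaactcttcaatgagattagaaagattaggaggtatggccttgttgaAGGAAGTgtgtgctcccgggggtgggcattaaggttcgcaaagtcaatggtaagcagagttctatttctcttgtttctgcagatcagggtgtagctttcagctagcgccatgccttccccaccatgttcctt
Cbr2: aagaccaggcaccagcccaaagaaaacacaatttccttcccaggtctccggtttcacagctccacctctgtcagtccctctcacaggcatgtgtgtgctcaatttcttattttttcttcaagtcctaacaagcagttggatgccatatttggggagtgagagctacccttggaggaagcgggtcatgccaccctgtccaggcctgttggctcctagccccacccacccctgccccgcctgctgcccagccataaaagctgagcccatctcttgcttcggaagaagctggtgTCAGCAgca
Folr2 had AGGAAGT at 137 and at 82 bases before its start and TGCTGA at 220 bases before it. In Cbr2 the reverse complement of TGCTGA lay past the start, and neither run of letters was found in the Cd163 window. Of the 32851 promoters in the table, 9.35% held AGGAAGT and 19.5% held TGCTGA on either strand, so each is common in windows of this length. Lyve1 had no entry, and whether these letters bear on the level of any of the genes was not tested.

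Members made up 41.8% of the C1q macrophages of S2D (28 of 67, exact 95% binomial interval 29.8% to 54.5%) and 64.1% of those of S6W (75 of 117, 54.7% to 72.8%). They were 18.0% in C2D (378 of 2105, 16.3% to 19.7%) and 22.6% in C6W (21 of 93, 14.6% to 32.4%). C1q macrophages are the barcodes that met the rule up to Col3a1. By the full rule both saline libraries thus had the higher shares. The intervals of S2D and C2D did not overlap, nor did those of S6W and C6W. Those of S2D and S6W, both saline, did not overlap either, whereas those of S2D and C6W did. The intervals cover counting error only, and with 1 library per group no test between groups was possible. Among all kept barcodes the order was another, with 0.837%, 8.12%, 3.69% and 0.757% in S2D, C2D, S6W and C6W, since C1q macrophages were 45.2% of C2D and 2.00% to 5.76% of the other libraries. With each macrophage thinned to 2000 UMIs before the rule was applied, the members' share of C1q macrophages was 26.3%, 8.30%, 51.8% and 13.1% in S2D, C2D, S6W and C6W. Without the limit on Gpnmb 932 C1q macrophages of C2D would be members (44.3%) in place of 378. S2D would have 29 (43.3%), S6W 75 (64.1%) and C6W 21 (22.6%). With the dividing term left out as well, the shares were 43.3%, 54.2%, 64.1% and 23.7% in S2D, C2D, S6W and C6W. At full depth the lower share of C2D than of S2D thus rested on the Gpnmb limit of the rule.

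**Figure D1:**
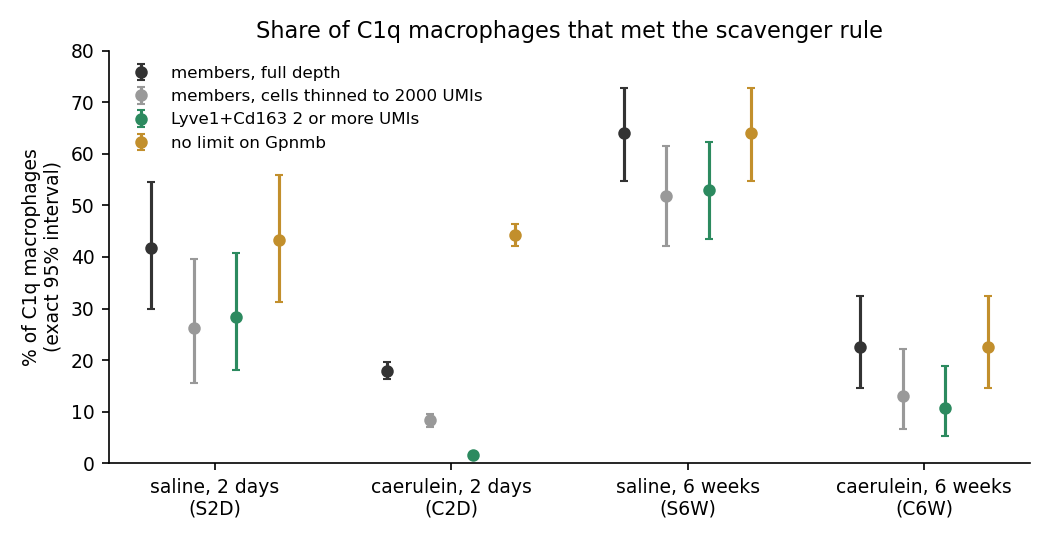
Share of C1q macrophages that met the rule in each library (points, percent on the vertical axis, with exact 95% binomial intervals as bars), at full depth, thinned to 2000 UMIs, with Lyve1 and Cd163 alone as markers, and with no limit on Gpnmb. Full-depth shares were 41.8%, 18.0%, 64.1% and 22.6%, and with Lyve1 and Cd163 alone C2D was at 1.57%.

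The members of C2D went against the name of a resident scavenger macrophage, and they are called here by the rule that chose them. Lyve1 had a UMI in 11 of 28 members of S2D (39.3%), 7 of 378 of C2D (1.85%), 47 of 75 of S6W (62.7%) and 4 of 21 of C6W (19.0%). T and B cells, which should lack the gene, had a Lyve1 UMI in 0% (S2D, where 0 of 998 cells allows up to 0.301%), 0.775% (C2D), 0.521% (S6W) and 0% (C6W, up to 0.771%), at medians of 6625, 5664, 7190 and 8452 UMIs. Cd163 was seen in 71.4% of members of S2D, 15.1% of C2D, 69.3% of S6W and 61.9% of C6W, and in no T or B cell of any library. Folr2 and Cbr2 did not part in this way: Folr2 was seen in 57.1%, 86.5%, 66.7% and 71.4% and Cbr2 in 78.6%, 70.9%, 93.3% and 90.5% of members of S2D, C2D, S6W and C6W. At 2000 UMIs per cell Folr2 was seen in 39.3%, 35.8%, 52.0% and 52.4%, so its higher share in C2D was not present at equal depth. In C2D 315 of 378 members (83.3%) qualified through Folr2 and Cbr2 UMIs with none of Lyve1 or Cd163, against 21.4% in S2D, 13.3% in S6W and 33.3% in C6W. All 4 genes were seen together in 28.6% of members of S2D, 38.7% of S6W and 14.3% of C6W, and in 1 member of C2D. These are values of the genes that chose the members and carry no test.

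Genes outside the rule parted in the same libraries. Timd4 had a UMI in 28.6% of members of S2D (8 cells), 44.0% of S6W (33 cells), 9.52% of C6W (2 cells) and 0.265% of C2D (1 cell), and in none of the 691 other C1q macrophages. Cd209f, a C-type lectin, was seen in 14.3%, 34.7% and 4.76% of members of S2D, S6W and C6W and in 1 member of C2D. Ccr2 had a UMI in 69.0% of members of C2D, against 7.14% in S2D, 8.0% in S6W and 14.3% in C6W. In T and B cells, of which some T cells carry the receptor, it was seen in 5.81% (S2D), 35.7% (C2D), 12.5% (S6W) and 10.8% (C6W), so the shares of members outside C2D were near those of lymphocytes. Mrc1, the mannose receptor, was common to all 4 libraries, at 96.4%, 87.3%, 97.3% and 95.2% in S2D, C2D, S6W and C6W, with 1.03% to 3.51% in T and B cells. Spp1, which encodes osteopontin, was seen in 87.0% of members of C2D, and its shares of 17.9% (S2D), 13.3% (S6W) and 19.0% (C6W) lay within 2-fold or little more of those of T and B cells (14.9%, 6.25% and 20.3%), whereas that of C2D stood far above its own background of 17.8%. Lymphatic endothelium also carries Lyve1. Its genes summed to 0 UMIs in members of S2D, 3 in S6W, 9 in C6W and 324 in C2D, where Mmrn1, Reln and Sema3d were at 0 and 317 of the UMIs were of Pdpn. Gata6, a transcription factor of peritoneal macrophages, had a UMI in 3.57%, 1.32%, 2.67% and 0% of members and in 1.80%, 2.33%, 2.60% and 1.54% of T and B cells, a background level, where 0 of 21 in C6W allows up to 14.3%.

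**Figure D2:**
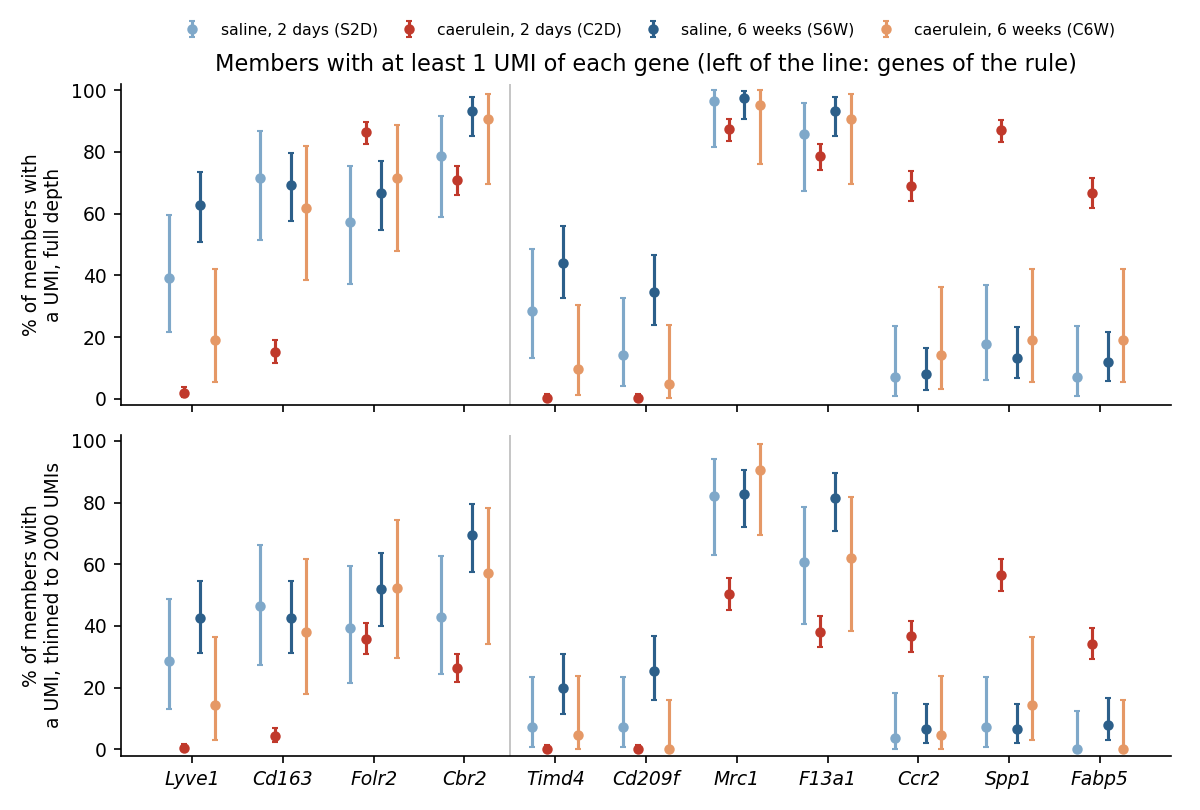
Percent of members with at least 1 UMI of each gene (vertical axes) by library, at full depth (top) and with each cell thinned to 2000 UMIs (bottom); bars are exact 95% binomial intervals. In C2D Lyve1, Timd4 and Cd209f sat at or under 1.85% while Ccr2 was at 69.0% and Spp1 at 87.0%.

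The threshold of 2 marker UMIs ran through a range of cells. Members at 2 or 3 marker UMIs were 25%, 41.5%, 12% and 23.8% in S2D, C2D, S6W and C6W, and those at 10 or more were 35.7%, 16.9%, 65.3% and 47.6%. Just outside the rule, at 1 marker UMI, stood 4, 144, 4 and 6 cells of S2D, C2D, S6W and C6W. In C2D the cells at 1 marker UMI had a mean of 3.23 Mrc1 UMIs per 10000 and those at 2 had 2.64, whereas members at 12 or more had 6.64. In S6W the members at 12 or more marker UMIs, 44 of 75, had 15.3 Mrc1 UMIs per 10000 and 1.79 of Timd4.

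The question of what sets the members apart from other macrophages of the same tissue was put to UMIs summed over members and over other C1q macrophages, which met the same rule with 0 or 1 marker UMI (37, 548, 38 and 68 cells in S2D, C2D, S6W and C6W). With library as a block, edgeR's quasi-likelihood test called 135 of 5833 genes higher in members (2.31%) and 199 lower (3.41%), together 5.73%, at a Benjamini-Hochberg adjusted p under 0.05. The test asks for a difference shared by 4 libraries of 4 conditions, and its replicates are libraries. The 135 include the 4 marker genes Lyve1, Cd163, Folr2 and Cbr2, whose difference the rule set in advance. No gene of the rule was among the 199. Genes of the rule are left out of the genes and lists named in what follows. Macrophage identity genes as such did not pass: Csf1r was 0.28 ± 0.14 (log2, SE) higher in members with an adjusted p of 0.32, and Adgre1, which encodes F4/80, was 0.18 ± 0.16 higher with an adjusted p of 0.66.

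Scavenger and endocytic receptors were higher in members in 9 of 17 tested genes and lower in none. Mrc1 was 1.82 ± 0.25 (log2, SE) higher in members, with an adjusted p of 0.0009 by edgeR. It was higher in all 4 libraries, by 2.06, 0.73, 2.52 and 2.11 in S2D, C2D, S6W and C6W. Stab1, a receptor for modified lipoproteins and phosphatidylserine, was 1.32 ± 0.21 higher with an adjusted p of 0.0025. Colec12, a scavenger receptor with a collagen-like stalk, was 3.63 ± 0.65 higher, and its call was lost without S6W. Cd209f summed to 10, 6, 274 and 1 UMIs in members of S2D, C2D, S6W and C6W and to 0 in the other macrophages of every library, so that 1 library held nearly all of it. Cd209f and Mgl2 have close paralogues, and how the counting treated shared reads is not given in the sources used here.

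Of 22 tested genes of resident macrophage identity, 13 were higher in members and 1 was lower, with a median log2 difference of 1.39 against 0.01 over all tested genes. Pf4, the chemokine platelet factor 4, was 3.06 ± 0.38 higher, with an adjusted p of 0.00051 and differences of 4.03, 1.52, 2.54 and 4.5 in S2D, C2D, S6W and C6W. F13a1, the A chain of coagulation factor XIII, was 2.70 ± 0.33 higher. Gas6, a bridging ligand between dying cells and TAM receptors, was 2.74 ± 0.34 higher. The transcription factor Maf was 1.85 ± 0.25 higher, the growth factor Igf1 was 1.60 ± 0.20 higher and Selenop, a selenium carrier, was 1.39 ± 0.20 higher. In each of these genes the difference was smallest in C2D, and the difference between libraries was not tested. Cx3cr1 was the resident identity gene that was lower. Fcna, which encodes ficolin A, was 4.87 ± 0.44 higher, but 287 of its 322 member UMIs were from S6W and its call was lost without that library.

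MHC class II presentation genes pointed the other way: 8 of 13 were lower in members and none was higher, with a median of −1.28. Cd74, the invariant chain, was lower in members at −1.37 ± 0.20 (log2, SE), with an adjusted p of 0.0014. H2-Eb1 stood at −1.5 ± 0.23 and H2-DMb1 at −1.39 ± 0.17, and both were lower in all 4 libraries. For H2-Eb1 the differences were −0.90, −2.66, −1.60 and −0.89 in S2D, C2D, S6W and C6W. A dendritic cell gene was lower as well: Ccr7, the chemokine receptor of migrating dendritic cells, had 1, 5, 0 and 1 UMIs in members and 35, 126, 0 and 21 in the other macrophages, a difference of −4.23 ± 0.47 with an adjusted p of 0.00042. Of the 10 dendritic markers 2 were tested, with a median of −2.21. All 10 together gave 13, 270, 82 and 12 UMIs in members, or 58.2, 48.9, 121 and 55.7 per 1000000. The others held 52, 561, 21 and 70, or 146, 84.3, 53.7 and 94.3 per 1000000. The list was thus lower in members of S2D, C2D and C6W and higher in those of S6W, and H2-Eb1 was lower in members of all 4. UMIs of 4, 10, 6 and 3 of the 10 markers were seen in members of S2D, C2D, S6W and C6W, and of 5, 10, 6 and 7 in the others. The part of dendritic cells in the MHC class II difference was not tested. Itgax, which encodes CD11c, had 0, 33, 3 and 0 UMIs in members and 27, 246, 36 and 66 in the other macrophages of S2D, C2D, S6W and C6W. Mmp12, macrophage elastase, had 0, 23, 2 and 0 UMIs in members against 28, 234, 50 and 124, in a lipid-associated list with 3 of 21 genes higher and 3 lower. Inflammatory genes were lower in 3 of 19 and higher in none. Il1b, among these, was lower in members at −1.66 ± 0.21, with an adjusted p of 0.00051. Of 13 tested monocyte genes 4 were lower, among them Ccr2 at −2.11 ± 0.41. Its difference was −0.49 in C2D against −3.18, −3.12 and −3.56 in S2D, S6W and C6W, and the Ccr2 call was lost without S2D, without S6W or without C6W.

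Complement genes were higher in 5 of 9 tested genes and lower in 1, with C4b 2.42 ± 0.47 (log2, SE) higher. Chemokines were split, with 6 of 18 higher and 5 lower. Ccl7 and Ccl8 were 1.5 ± 0.18 and 3.27 ± 0.35 higher, and Ccl24, an eosinophil chemokine, was 3.28 ± 0.41 higher. Ccl5 was lower at −2.24 ± 0.43 and lost its call without S6W. Among iron and haem genes 4 of 12 were higher and 1 was lower. Hmox1, haem oxygenase 1, was 1.19 ± 0.33 higher with an adjusted p of 0.054. Mmp9, gelatinase B, was 4.03 ± 0.55 higher, with 28, 22, 177 and 20 UMIs in members and 1, 9, 0 and 2 in the others. Of markers of cells other than dendritic cells, 1 of 26 acinar genes (Pla2g1b) was called higher in members, and 0 of 7 B and plasma cell genes and 0 of 2 fibroblast genes were called in either direction. Their part in the result was not tested.

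**Figure D3:**
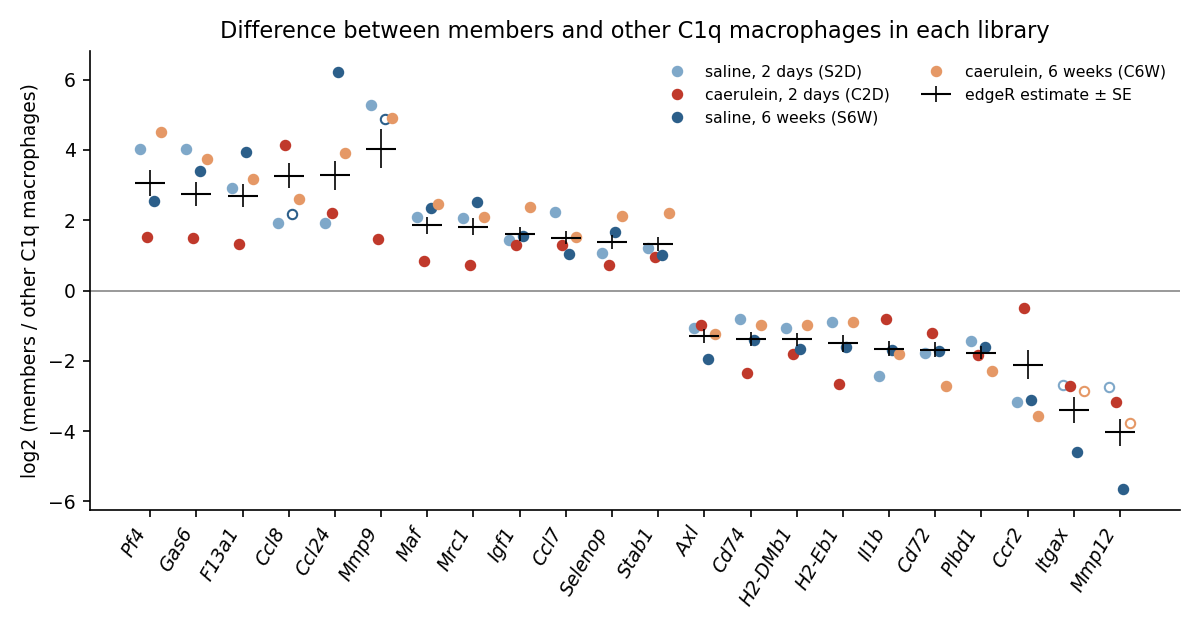
Log2 ratio of members over other C1q macrophages for each gene (horizontal axis), 1 point per library, with edgeR's estimate and its standard error in black; open points are bounds where 1 class had 0 UMIs. Genes from Pf4 to Stab1 lie above 0 in all 4 libraries and genes from Axl to Mmp12 below it, with Ccr2 nearest to 0 in C2D at −0.49.

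Each library left out in turn changed the number of calls, with 57 genes higher and 75 lower of 6378 tested without S2D. There were 286 and 356 of 4530 without C2D, 37 and 40 of 5684 without S6W, and 45 and 57 of 5576 without C6W. Of 59 named genes called, 28 were called in every one of the 4 fits, 14 higher and 14 lower, and 29 lost the call in at least 1 fit. The 28 include Pf4, F13a1, Gas6, Maf, Mrc1, Igf1, Selenop, Stab1, Ccl7, Ccl8, Ccl24, Mmp9, Cd74, H2-Eb1, H2-DMb1, Il1b, Itgax and Mmp12. With digestive genes left out of the totals the median of all genes moved to 0.16. The calls moved to 206 higher and 107 lower of 5833 tested, and 65.8% of them were higher in place of 40.4%. Without the library block 12 genes were higher and 3 lower of 4880 tested.

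Members also differed among themselves within a library. The genes H2-Aa, H2-Ab1, H2-Eb1 and Cd74 together gave a median of 5.83% of a member's UMIs in S2D, 3.40% in S6W and 7.21% in C6W, with cells from 0% to 10.9% across these libraries. In C2D the median was 0.0234% and the highest cell held 8.98%. More than 1% was reached by 78.6% of members of S2D, 66.7% of S6W, 90.5% of C6W and 11.4% of C2D. Within S2D the 11 members with a Lyve1 UMI had a median of 1.70% and the 17 without had 7.29%. Within S6W the 47 members with a Lyve1 UMI had a median of 1.44% and the 28 without had 4.16%. Both saline libraries thus had the lower MHC class II share in the Lyve1 cells, at medians of 7691 against 6868 UMIs in S2D and 8727 against 8955 in S6W. Timd4 cells of S6W followed the same order, with 1.04% in 33 cells with a UMI and 4.48% in 42 without. Folr2 did too, with 1.35% in 50 and 5.99% in 25 cells of S6W. Cd163 did not share this order in the saline libraries: cells with a UMI had 6.28% and 3.43% in S2D and S6W, and those without had 2.91% and 2.86%. Lyve1, Folr2 and Cd163 are genes of the rule, and a member that lacked any of them had to qualify through the other markers. The splits by these genes are therefore a description. The marker genes overlapped in part. In S6W 34 of 47 Lyve1 cells had a Cd163 UMI and all 47 had a Cbr2 UMI, while 48 of 70 Cbr2 cells had Cd163.

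**Figure D4:**
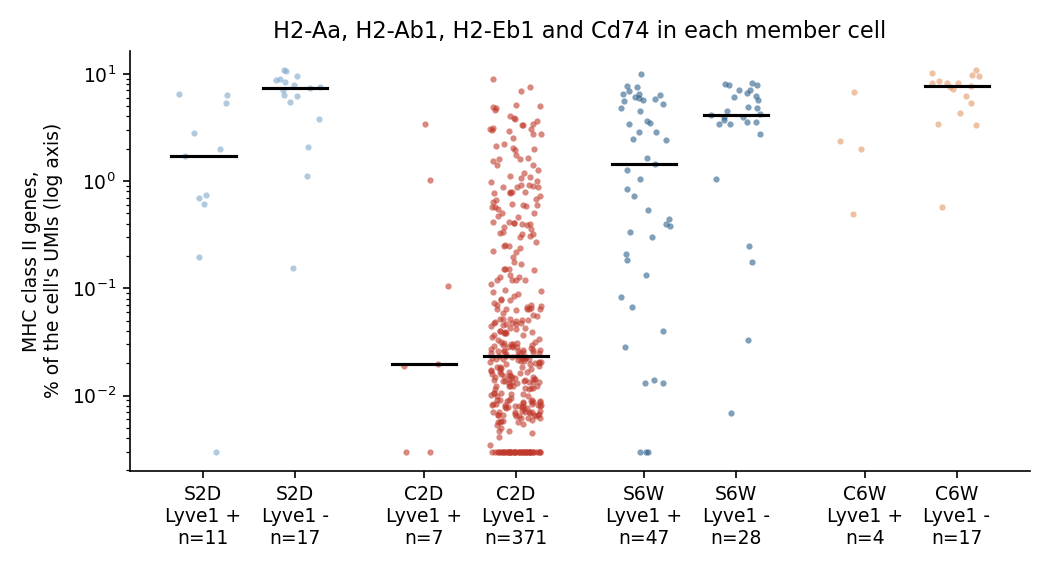
Share of each member cell's UMIs in H2-Aa, H2-Ab1, H2-Eb1 and Cd74 (vertical log axis, percent), by library and by whether the cell had a Lyve1 UMI; lines are medians of groups of 5 or more cells, and cells at or below 0.003% are drawn at that value. In S2D the medians were 1.70% with and 7.29% without Lyve1, in S6W 1.44% and 4.16%, and most cells of C2D lay below 1%.

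Caerulein and saline at 2 days were compared as the log2 ratio of UMIs summed over members, C2D over S2D, scaled by edgeR's TMM totals. A gene was compared where both CPM values (UMIs of a gene scaled to the total of the members' UMIs) averaged to at least 20 expected UMIs in the smaller library. Intervals are exact and cover counting error alone. There is no replicate, so no p-value is given, and genes past a 2-fold ratio are counted. Of 1482 genes compared, 216 were at least 2-fold higher in C2D (14.6%) and 140 at least 2-fold lower (9.45%), together 24.0%. The median log2 ratio over these genes was 0.24. With digestive genes left out of the totals these were 157 and 158, and the median 0.11.

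The genes of the rule are given first, as a description. Lyve1 was at 199 CPM, 1.72, 646 and 195 in S2D, C2D, S6W and C6W, and Cd163 at 438, 30.7, 526 and 293. Folr2 was at 323 CPM, 250.4, 886 and 613 in S2D, C2D, S6W and C6W, and Cbr2 at 425, 173, 739 and 475. Lyve1 and Cd163 were thus far lower in C2D than in any other library, whereas the log2 ratio of Folr2 to S2D was −0.37, with an interval of −0.71 to −0.01.

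Of 15 compared genes of resident identity 1 was higher (Ninj1) and 3 were lower (Mrc1, Pf4 and F13a1). Mrc1 was at 995.5 CPM in S2D and 447 in C2D, a log2 ratio of −1.16 (−1.35 to −0.95). Pf4 stood at −1.06 and F13a1 at −1.10. Maf (−0.57), Gas6 (−0.66) and Igf1 (−0.70) were lower by less than 2-fold, and Selenop was higher by 0.66. The lectin gene Mgl2 had 133 UMIs in 21 of 28 members of S2D and 12 UMIs in 9 of 378 members of C2D, a log2 ratio of −8.00 (−8.99 to −7.15). Cd36, the fatty acid transporter, was at −3.27, whereas the receptors Stab1 (1.07), Lrp1 (1.16) and Scarb2 (2.37) were higher.

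MHC class II genes were at least 2-fold lower in 6 of 8 compared genes, with a list median of −2.56. H2-Eb1 was at 8614 CPM, 644, 5466 and 9317 in S2D, C2D, S6W and C6W, a 2-day log2 ratio of −3.74 (−3.82 to −3.66). The other C1q macrophages of C2D also had less of it than those of S2D: in the scaling over both classes the ratio was −2.16 for them and −3.93 for members. Ctss, a cathepsin of antigen processing, was the gene of this list that was higher. Against that, genes of lipid-associated macrophages were higher in 12 of 16 compared, with a median of 1.56, and 1 was lower (Lpl). Spp1 had 5 UMIs in 5 members of S2D and 6912 in 329 members of C2D, a log2 ratio of 5.90 (4.68 to 7.53). Fabp5, a fatty acid binding protein, had 2 UMIs in S2D and 2150 in C2D, at 5.54 (3.69 to 8.59). The lipid receptor Trem2 was 2.89 higher and the lysosomal protease Ctsd 3.71 higher. The other C1q macrophages of C2D also had more than those of S2D: in the scaling over both classes Spp1 was 4.21 higher in others and 5.71 in members, Fabp5 2.50 and 5.35, and Trem2 1.45 and 2.70. Whether the classes differ in this was not tested, with 1 library per group. Of 19 compared lysosomal genes 10 were higher and none was lower.

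Monocyte genes were higher in 6 of 9 compared and lower in 2 (Plac8 and S100a6), with a median of 1.61. Ccr2 was at 35.4 CPM, 305, 22.1 and 31.1 in S2D, C2D, S6W and C6W, a 2-day log2 ratio of 3.11 (2.13 to 4.32). Of its 8 UMIs in S2D 6 were in 1 cell. In the other C1q macrophages Ccr2 was 0.23 higher in C2D, so members and others were closer in Ccr2 in C2D than in S2D. The matrix genes Thbs1 and Fn1 had 1 UMI each in S2D and 4223 and 3204 in C2D, log2 ratios of 7.51 (5.04 to 12.8) and 7.12 (4.64 to 12.4). Against S6W in place of S2D, Fn1 was 2.45 and Fabp5 2.40 higher. All 76 Fn1 UMIs of S6W were in 1 cell, and 33 of its 53 Fabp5 UMIs were in 1 cell. Chil3 had 0 UMIs in S2D, S6W and C6W and 1869 in C2D, at least 27-fold higher than the 3 counts that 0 allows in S2D. Arg1 was likewise at 0 UMIs in members of the other 3 libraries and had 267 in 94 of 378 members of C2D (24.9%), against 5.43% of T and B cells with a UMI there.

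Inflammatory genes were split, with 5 of 16 compared higher and 2 lower. Il1b was 2.66 higher (2.37 to 2.97; 2.47 in members and 0.86 in others in the scaling over both classes), Ptgs2, the inducible cyclooxygenase, 4.10 higher and Il1rn, the interleukin 1 receptor antagonist, 2.02 higher, while Tnf was at −1.07. The cytokine Osm was 3.29 higher. Chemokines were lower in 7 of 14 and higher in 1 (Cxcl1). Interferon response genes were lower in 5 of 8, with Ifit1 at −2.60, and Ifnb1 was at −4.26, with 78 of its 148 UMIs of S2D in 1 cell. Early response and dissociation genes were lower in 9 of 18 and higher in 1. Hspa1a was at −3.23 and Egr1 at −1.89, so the handling genes moved with the same pair of libraries and their part in the result was not tested. Acinar genes were lower in 15 of 22 and higher in 1 (Reg1). The acinar list gave 7468 of the 223201 UMIs of members of S2D and 85645 of the 5520471 of C2D. Of these acinar UMIs 34.9% in S2D and 15.4% in C2D were in 1 member. The lowest ratio of all named genes, Cd79a at −10.05, rested on 46 UMIs in S2D, and 73.3% of that library's 464 B and plasma cell UMIs were in 1 member.

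The 33 members of C2D with 2 or more UMIs of Lyve1 and Cd163 summed were taken on their own against the 19 of S2D. In this subset Lyve1 still stood at −4.93 and Cd163 at −1.28 (log2, C2D over S2D). They were 1.57% of the C1q macrophages of C2D, against 28.4%, 53.0% and 10.8% in S2D, S6W and C6W. Their log2 ratio was −3.66 for H2-Eb1, 5.52 for Spp1, 5.69 for Fabp5, 2.38 for Ccr2 and 2.78 for Il1b, the same direction as for all members. Mrc1 (−0.68) and F13a1 (−0.52) were then less than 2-fold lower. Of 972 genes compared 94 were higher and 97 lower, against 216 and 140 of 1482 for all members.

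**Figure D5:**
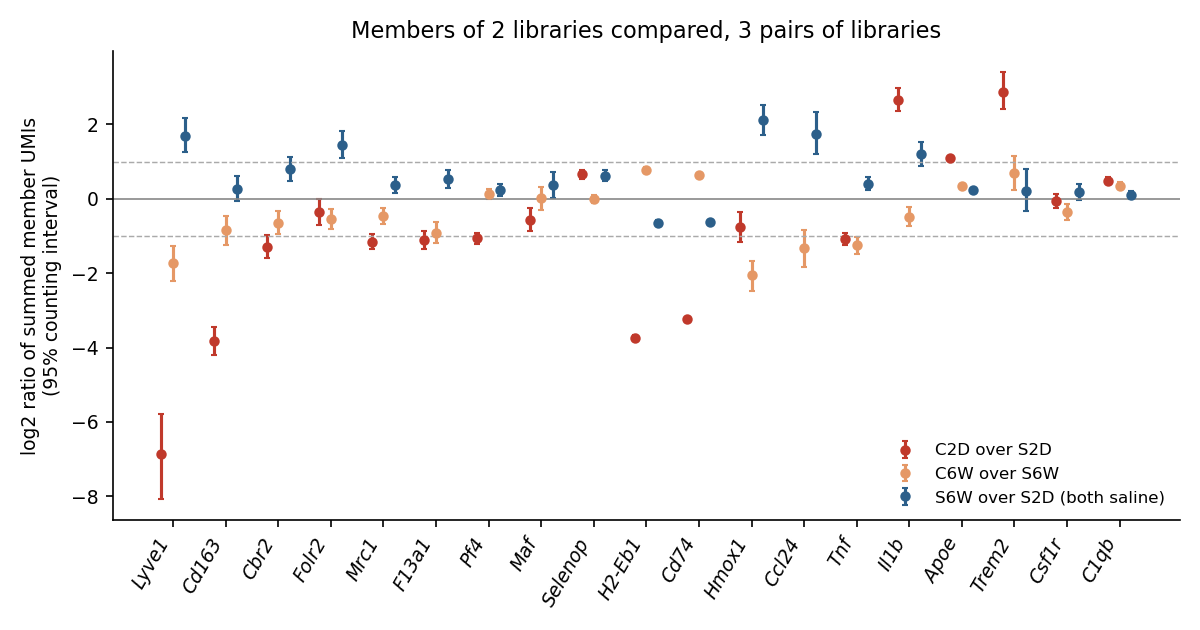
Log2 ratio of summed member UMIs (vertical axis, points, with 95% counting intervals as bars) for each gene in C2D over S2D, C6W over S6W and S6W over S2D; dashed lines mark a 2-fold ratio. Lyve1, Cd163, H2-Eb1 and Cd74 are lowest in C2D over S2D and Trem2 and Il1b highest, while Lyve1, Hmox1 and Ccl24 are below 0 in C6W over S6W and above 0 in S6W over S2D.

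Within C2D the members were set against the 827 macrophages with 2 or more Gpnmb UMIs that were not dividing, as a description of 1 library. Of 8911 genes compared 93 were at least 2-fold higher in members (1.04%) and 90 at least 2-fold lower (1.01%), together 2.05%. The Gpnmb limit and the marker genes Lyve1, Cd163, Folr2 and Cbr2 are part of the rule. The Gpnmb macrophages needed no marker UMI, so the values of these genes are a description. Of genes of the rule, the counts above hold Cd163 among the higher and Gpnmb among the lower. Folr2 and Cbr2 were near even (0.33 and 0.38 higher in members, log2), with a Folr2 UMI in 68.9% and a Cbr2 UMI in 56.5% of the Gpnmb macrophages. Lyve1 was seen in 0.726% and Timd4 in 0.242% of them. Cd163 was 2.67 higher in members. MHC class II genes were higher in 5 of 11, with H2-Aa at 1.57 and Cd74 at 1.53, and of 16 monocyte genes 2 were higher (Ccr2 at 1.55 and Plac8 at 2.16) and 2 lower (F10 at −1.29 and Hp at −1.25). Lipid-associated genes were lower in 9 of 22 and higher in none, with a median of −0.80, Fabp5 at −2.32, Ctsd at −1.11 and Mmp12 at −1.37. Of 7 blood endothelium genes 6 were higher in members, and 89.5% of the members' UMIs of that list were in 1 cell. Acinar genes were higher in 5 of 26, with a median of 0.82 and Cela2a at 1.47, Ighm was 1.0 higher, and neutrophil genes were lower in 2 of 3 (Mmp8 and S100a8). The part of these other cells in the result was not tested.

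At 6 weeks the members of C6W numbered 21 against 75 of S6W. Of 1385 genes compared 14 were at least 2-fold higher in C6W (1.01%) and 70 at least 2-fold lower (5.05%), together 6.06%, with a median of −0.05. The resident identity genes were called lower in 3 of 19 (Ednrb, Fcna and Ninj1) and higher in 1 (Cx3cr1), with a list median of −0.35. Some genes were lower by less than 2-fold: in the scaling over both classes members of C6W had F13a1 at −0.83, Gas6 at −0.40 and Mrc1 at −0.37. Maf (0.01), Pf4 (0.14), Igf1 (0.04) and Selenop lay near even, with intervals of −0.12 to 0.11 for Selenop, −0.30 to 0.31 for Maf and −0.47 to 0.52 for Igf1. Lyve1 was at −1.72 (−2.21 to −1.28), with 23 of the 44 UMIs of C6W in 1 cell. Cd209f had 274 UMIs in 26 members of S6W and 1 UMI in C6W, a ratio of −6.51 (−11.82 to −4.02). Ednrb, an endothelin receptor, was at −4.40 and Fcna at −3.57. Retnla had 2217 UMIs in 11 members of S6W, 548 of them in 1 cell, and 0 in members of the other 3 libraries. That is at least 245-fold lower in members of C6W than of S6W. The other C1q macrophages had the opposite order, with 3 Retnla UMIs in S6W and 248 in C6W. Hmox1 was at 1094 CPM in S6W and 262 in C6W. MHC class II genes were past 2-fold in 0 of 8, with a list median of 0.65 and H2-Eb1 at 0.77 (0.69 to 0.85). Chemokines were lower in 8 of 14, including Ccl3, Ccl2 and Ccl24, and higher in 1 (Ccl8), and Tnf was at −1.25. Ccl8 was 2.30 higher, with 33 of the 44 UMIs of C6W in 1 cell. Interferon genes were lower in 4 of 8, with Ifit1 at −3.86, and higher in 1 (Irf1).

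The saline libraries also differed from each other, in a comparison that shares S6W with the one above. In S6W over S2D, of 1401 genes compared 64 were at least 2-fold higher (4.57%) and 40 lower (2.86%), together 7.42%. Members of S6W had more Lyve1 (1.70), Folr2 (1.46), Cd209f (3.19), Fcna (3.77), Hmox1 (2.12), Ccl24 (1.74), Ednrb (2.18) and Retnla than members of S2D. With S2D as the control of C6W the Lyve1 ratio was −0.03, Hmox1 was 0.06, Ccl24 was 0.42 and H2-Eb1 was 0.11, while Ifit1 stayed at −3.09 and Ccl3 at −1.20. The difference in Lyve1, Hmox1 and Ccl24 at 6 weeks thus held against S6W and not against S2D. Whether recovery time, treatment or the library set it cannot be told apart in 1 library per group.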

How the data were processed

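The assay was droplet single-cell RNA sequencing, 1 library for each of 4 groups. The values are UMI counts per gene and barcode, made by the authors with Cell Ranger 3.0.2 on mm10 and deposited as filtered matrices of 31053 genes, per the submitters' processing notes and the file headers. Members and gene lists were chosen with earlier results of these data known. Barcodes were filtered by the rule in the text with Python 3.11.15, and Scrublet (scanpy 1.11.5) scored doublets, which were kept. Counts were summed over members per library. Ratios used TMM totals of edgeR 4.0.16 (R 4.3.3), exact 95% intervals and a floor of 3 counts where a library had 0. Members and other C1q macrophages were compared by edgeR's quasi-likelihood test with library as a block and Benjamini-Hochberg adjustment, and its p-values rest on 4 libraries. The scripts were tested on simulated data. Named genes were a set of marker genes, the 5 highest and 5 lowest ratios per comparison (mitochondrial, ribosomal, haemoglobin, immunoglobulin, digestive, sex-linked and unnamed genes left out), up to 4 genes per list with the largest absolute ratios, and the 10 lowest adjusted p in each direction. Genes printed outside these were chosen after their values were seen. Alternatives changed the scaling (DESeq2 1.42.0 among them), filters, depth, doublets, free RNA and marker rule. T and B cells served as background for shares of cells with a UMI. UMI counts and intervals cover counting error only.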

Additional observations from a re-analysis of the deposited data

How the results depend on the processing

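No paired analysis was possible because each treatment and time was 1 library, so no replicate numbers pair caerulein with saline. Between members and other C1q macrophages the library was the block, and the fit with no replicate block called 12 genes higher and 3 lower, of 4880 tested. That comparison gave 206 higher and 107 lower of 5833 tested with totals without digestive genes. It gave 221 and 387 of 16003 with no filter on low counts, and 38 and 45 of 1826 at 2000 UMIs per cell. Leaving out 1 library gave 37 to 286 higher and 40 to 356 lower, with 4530 to 6378 genes tested. At 2 days the higher and lower counts were 383 and 248 of 2821 genes compared at 10 expected UMIs. They were 73 and 73 of 611 at 50, and 1053 and 290 of 5321 at 100 UMIs over both libraries. After thinning they were 94 and 44 of 435, and with S6W as control 402 and 315 of 3950. There were 93 lower of 791 after free RNA was subtracted and 97 higher of 1132 without the top cell of each gene. With Lyve1 and Cd163 alone 94 of 972 were higher. At 6 weeks the higher and lower counts were 54 and 174 of 2674 at 10 expected UMIs. They were 2 and 34 of 579 at 50, and 0 and 40 of 338 after thinning. Higher genes were 5 of 1133 at 100 UMIs and 28 of 685 after free RNA was subtracted. They were 3 of 727 with Lyve1 and Cd163 alone and 40 of 1340 with S2D as control. Between saline libraries the higher and lower counts were 186 and 108 of 2719 at 10 expected UMIs and 30 and 15 of 579 at 50. They were 38 and 6 of 422 after thinning, and 40 and 26 of 1110 without the top cell. Lower genes were 21 of 1135 at 100 UMIs and 26 of 1246 without the highest doublet scores. Against Gpnmb macrophages 41 were higher and 40 lower of 4168 after thinning. With S6W as the control of C2D, Ninj1 was −0.74 and Cxcl1 −0.72. With S2D as the control of C6W, Ccl8 was −0.24, Lpl −0.23, Fcgrt 0.37, Ninj1 0.71, Hmox1 0.0551, Ccl24 0.42, Cxcl1 0.0281, Lgals3 1.78 and Hspa1b −0.30. In the saline ratio S100a6 was 0.0719, Cel 0.0242 and Ighm 0.13 without the highest doublet scores, and Ighm was 0.45 with Lyve1 and Cd163 alone. Members' shares of C1q macrophages in S2D, C2D, S6W and C6W were 26.3%, 8.30%, 51.8% and 13.1% after thinning, 24.2%, 8.03%, 49.6% and 12% with macrophages found at full depth, and 28.4%, 1.57%, 53.0% and 10.8% with Lyve1 and Cd163 alone. In C2D they were 24.8% at 1 or more marker UMIs, 13.9% at 3 or more and 44.3% with no Gpnmb limit. The number of genes compared also changed with the setting, so the counts of genes are not of the same total. The cause of these shifts was not tested. The 28 and 21 members of S2D and C6W limit every ratio that rests on them.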
